A study of Rattus norvegicus with 6 samples.

Results

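Transcripts typical of fat cells were examined in gastrocnemius, the large calf muscle, of diet-induced obese rats fed 3 protein sources. The set was 10 genes, namely Adipoq, Lep, Plin1, Plin4, Cidec, Cfd, Fabp4, Lipe, Pnpla2 and Retn. A gene was found where the platform annotation of a row of the value table carried its symbol, and of several rows the brightest on average was to be used. This gave 9 of the 10 genes, each from a single row, among 14506 genes in all. No row was matched to Plin4, a perilipin, and it was not analysed here.

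The animals were male Sprague-Dawley rats that ate a diet rich in fat and sucrose without restriction for 8 weeks, from 12 to 20 weeks of age. Every group shared that background, an energy density of 4.6 kcal/g and 10% of energy as protein. The control diet had casein as its protein, the dairy diet took complete dairy protein (skim milk powder) instead, and the leucine diet combined 7.1% casein with 2.9% leucine. Each diet had 4 rats in the design text and 2 Affymetrix Rat Gene 1.0 ST arrays in the data. Whether an array stands for 1 rat or a pool is not labelled, and the p-values reflect the spread among arrays alone, which may be technical. The labels give gastrocnemius as the tissue, whereas the storage and extraction protocols speak of liver.

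Fat cells store triglyceride in a large lipid droplet and release hormones called adipokines. Perilipin 1 and CIDEC coat or enlarge the droplet, and adipose triglyceride lipase followed by hormone-sensitive lipase breaks the triglyceride down. Adiponectin and leptin are secreted by fat cells, and fat cells can lie between the fibres of a muscle or along its surface. Not every gene of the set is specific to fat cells: Pnpla2 and Lipe are also active in muscle fibres, and Fabp4 in capillary endothelium and macrophages. In a piece of whole muscle, fewer fat cells and less RNA per fat cell cannot be told apart.

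The promoters of 4 genes, Adipoq, Lep, Plin1 and Cidec, are printed. In each of them the same 2 arrays, casein array 2 and dairy array 1, were the highest, as described further on. Each sequence is the 250 bases before the outermost transcription start in RefSeq, build GRCr8, read 5′ to 3′ on the strand of the gene. Adipoq lies on the minus strand (chr11:91240170-91240419), Lep on the plus strand (chr4:58626288-58626537), Plin1 on the minus strand (chr1:143086149-143086398) and Cidec on the minus strand (chr4:148137116-148137365). Capitals mark matches to the CCAAT box, searched as CCAAT, and to the site of the C/EBP factors of fat cell differentiation, searched as TTGCNNAA, on either strand, and no match overlapped another.
Adipoq: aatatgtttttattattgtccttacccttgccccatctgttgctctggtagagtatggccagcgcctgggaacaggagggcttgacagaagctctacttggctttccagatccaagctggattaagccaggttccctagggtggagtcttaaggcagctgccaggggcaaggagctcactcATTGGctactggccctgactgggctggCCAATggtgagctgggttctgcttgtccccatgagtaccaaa
Lep: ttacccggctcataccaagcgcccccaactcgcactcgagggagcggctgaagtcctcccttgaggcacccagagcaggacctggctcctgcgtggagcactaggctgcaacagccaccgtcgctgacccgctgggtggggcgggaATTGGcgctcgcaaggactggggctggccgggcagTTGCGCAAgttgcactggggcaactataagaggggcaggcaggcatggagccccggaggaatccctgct
Plin1: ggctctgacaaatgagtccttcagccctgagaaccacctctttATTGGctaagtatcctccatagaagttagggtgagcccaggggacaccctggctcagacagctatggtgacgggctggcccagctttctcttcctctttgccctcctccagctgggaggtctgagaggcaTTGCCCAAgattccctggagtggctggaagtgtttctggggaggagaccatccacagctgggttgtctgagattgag
Cidec: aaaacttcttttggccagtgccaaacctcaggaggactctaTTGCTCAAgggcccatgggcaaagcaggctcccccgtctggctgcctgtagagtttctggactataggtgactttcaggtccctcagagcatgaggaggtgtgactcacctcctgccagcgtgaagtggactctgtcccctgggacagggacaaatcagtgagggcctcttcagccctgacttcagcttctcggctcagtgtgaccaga

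The letters TTGCNNAA were found in the windows of Lep, Plin1 and Cidec, 3 of the 8 genes of the set with a sequence, and in 9.21% of 27457 rat promoters of the same length. The match began 69 bases before the start in Lep, 77 in Plin1 and 209 in Cidec. The letters CCAAT were found in Adipoq, Lep and Plin1, and in 34.3% of all promoters. The DR1 motif, a direct repeat that is the consensus site of PPAR-gamma, the main regulator of fat cell genes, occurred in 0 of the 8 windows and in 0.0546% of all promoters. The single arm of that repeat, AGGTCA, which 13.6% of promoters held, was found in Retn only, and TATAAA, held by 13.1%, in 0 of the 8. Each match is a description of letters and not of a bound site.

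The deposited log2 signals had array medians between 3.46 and 3.56 over all rows and between 4.06 and 4.21 over the named genes. Casein array 2 had the lowest mean correlation with the other arrays, 0.977, against 0.982 to 0.987 for the rest. It also stood apart in cell type markers. After each gene was centred on its mean over the 6 arrays, the median there was −3.04 for slow-fibre genes, 2.13 for hepatocyte genes and 0.61 for macrophage genes. Fast-fibre genes, the defining transcripts of this muscle, lay between 11.0 and 13.6 on every array, except Myh2, a fast myosin heavy chain, which stood at 8.26 on casein array 2 and between 11.4 and 11.9 on the others. Without casein array 2, values against casein refer to casein array 1 alone.

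Adipoq, which encodes adiponectin, differed most between arrays. Its log2 signal was 5.66 and 7.42 on the 2 casein arrays, 6.72 and 4.48 on the dairy arrays, and 4.28 and 4.22 on the leucine arrays. Casein array 2 and dairy array 1 were high, casein array 1 was intermediate, and dairy array 2 lay close to the leucine arrays. From the lowest to the highest array this was a 9.18-fold range, at percentile 99.5 of the ranges of all genes. The 2 dairy arrays differed 4.75-fold from each other and the 2 casein arrays 3.39-fold, while the 2 leucine arrays differed 1.04-fold.

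Lep, the leptin gene, repeated the order of Adipoq, but its dairy array 2 and leucine array 1 were nearly equal. It stood at 3.96 and 5.09 with casein, 4.69 and 3.25 with dairy, and 3.24 and 2.79 with leucine. The range was 2.30 on the log2 scale, at percentile 98.7, and the casein and dairy arrays again differed more within their diet, by 1.13 and 1.44, than the leucine arrays, by 0.45. Only casein array 2 and dairy array 1 of the 6 lay above the median of the named genes on their array. The signals of Lep on dairy array 2 and the leucine arrays lay below the array medians over all rows too. No reading of background was at hand, so these signals are not shown to be above it.

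Of the lipid droplet proteins, Cidec, which promotes the growth and fusion of droplets, was high on the same pair of arrays. It stood at 3.87 and 5.48 with casein, 5.32 and 3.87 with dairy, and 3.77 and 3.87 with leucine. The value was exactly equal on 3 arrays, casein 1, dairy 2 and leucine 2, a feature of the deposited table that 34.6% of all genes shared. Plin1, which coats the droplet and gates lipolysis, stood at 4.15 and 4.79 with casein, 4.60 and 3.92 with dairy, and 4.04 and 3.85 with leucine. Its range of 1.91-fold was smaller, and casein array 2 and dairy array 1 were again the 2 highest.

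Casein array 2 and dairy array 1 thus lay above the other 4 arrays in 4 of the 9 genes, Adipoq, Lep, Plin1 and Cidec, and this order held in 4.31% of all genes. The order was noticed in these values and is given as a description without a test.

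**Figure D1:**
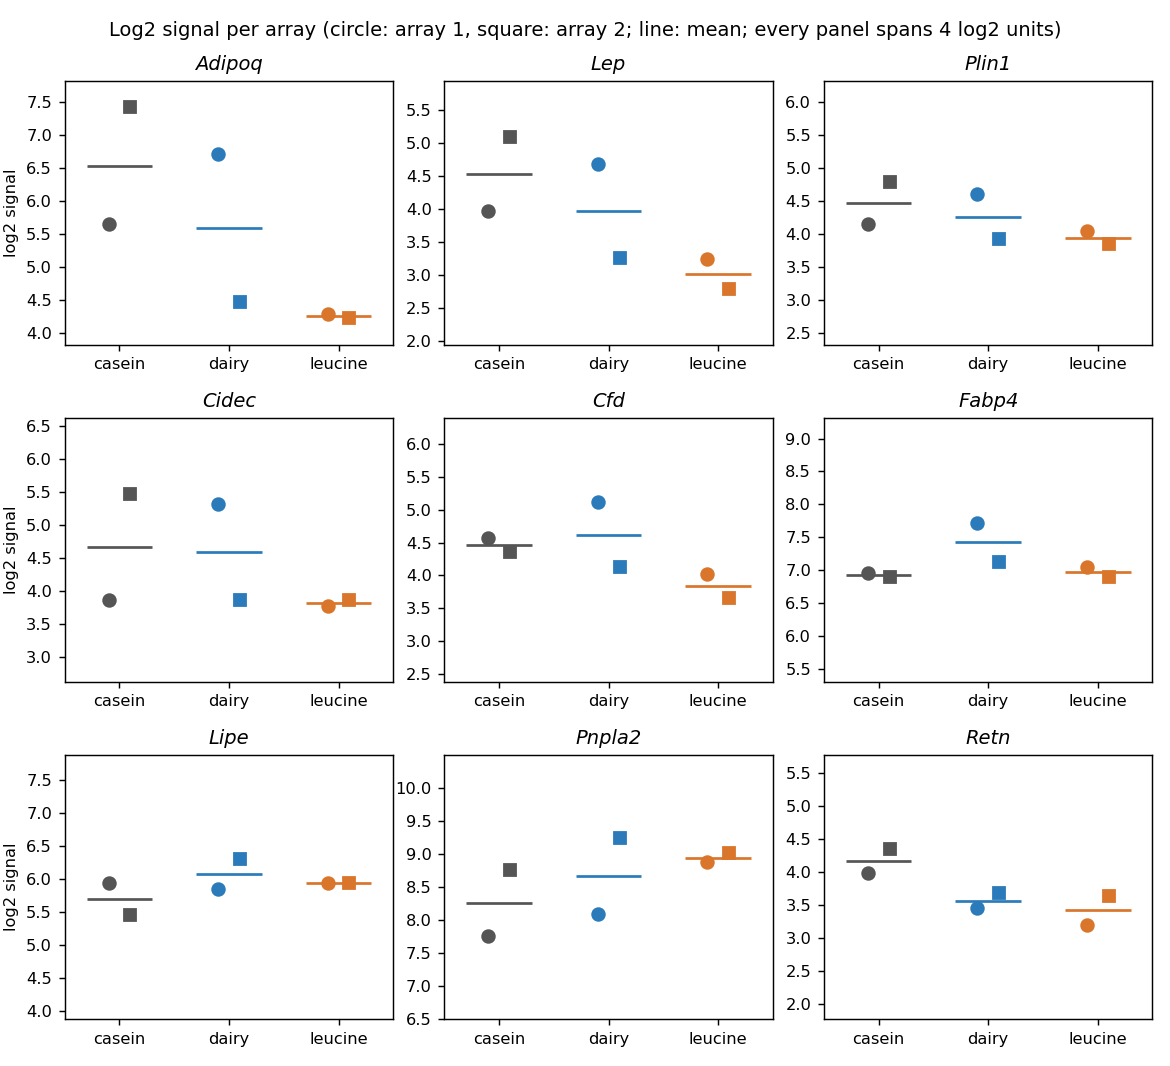
Log2 signal (vertical axis) of the 9 genes on each array by diet (horizontal axis); circles are array 1, squares array 2, lines the mean of the 2, and every panel spans the same 4 log2 units. In Adipoq, Lep, Plin1 and Cidec, casein array 2 and dairy array 1 lie above the other 4 arrays. The 2 leucine arrays are 0.06 apart on the log2 scale in Adipoq, 0.10 in Cidec, 0.19 in Plin1 and 0.45 in Lep.

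Cfd, which encodes the complement protease adipsin, followed a different order. Its log2 signals were 4.56 and 4.36 with casein, 5.11 and 4.13 with dairy, and 4.02 and 3.67 with leucine. Dairy array 1 was again high, but casein array 2 lay below casein array 1. Retn, the resistin gene, stood at 3.99 and 4.36 with casein, 3.45 and 3.68 with dairy, and 3.20 and 3.65 with leucine. Its casein arrays lay above all others, and a single array of the 6, casein array 2, exceeded the median of the named genes on its array.

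Fabp4, the fatty acid-binding protein of fat cells, did not share the order of Adipoq. It stood at 6.97 and 6.89 with casein, 7.72 and 7.12 with dairy, and 7.05 and 6.90 with leucine, so that casein array 2, the highest for Adipoq, was the lowest for Fabp4. Dairy array 1 was the highest for Fabp4 and Cfd alike. The range of Fabp4 was 1.78-fold, against 9.18-fold for Adipoq.

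The 2 lipases also departed from that order. Pnpla2, the gene of adipose triglyceride lipase, stood at 7.76 and 8.76 with casein, 8.08 and 9.24 with dairy, and 8.88 and 9.02 with leucine. Dairy array 2 was its highest array and casein array 1 its lowest, and dairy array 1, high for Adipoq, was its second lowest. Lipe, the gene of hormone-sensitive lipase, stood at 5.94 and 5.46 with casein, 5.85 and 6.30 with dairy, and 5.94 on both leucine arrays, where casein array 1 held exactly the same value. Its lowest array was casein array 2 and its range 1.80-fold.

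The distance between 2 genes was measured as the root mean square difference of their log2 signals over the 6 arrays, each centred on its own mean. Lep and Cidec were 0.35 apart and Adipoq and Lep 0.45, whereas Adipoq and Pnpla2 were 1.58 apart and Adipoq and Lipe 1.45. Cfd and Fabp4 were the closest pair of the set, at 0.30. These points share 6 arrays, and genes with a small range are close to one another for that reason alone.

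**Figure D2:**
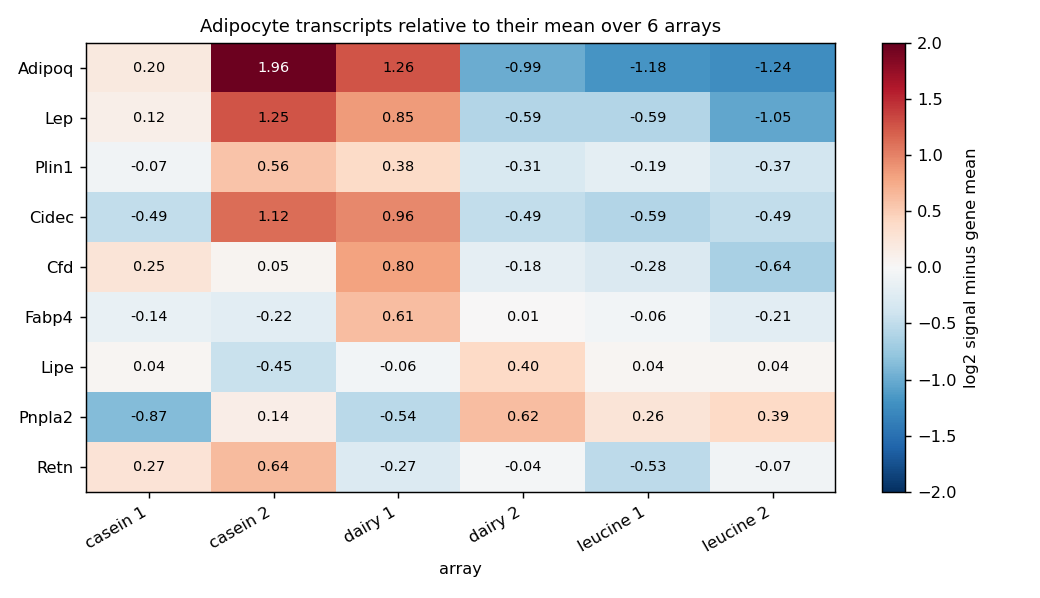
Log2 signal of each gene (rows) on each array (columns) minus the mean of that gene over the 6 arrays; red is above and blue below the mean. Adipoq reaches 1.96 on casein array 2 and 1.26 on dairy array 1 and lies at −0.99 to −1.24 on dairy array 2 and the leucine arrays, while Pnpla2 is at −0.54 on dairy array 1 and 0.62 on dairy array 2.

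The first comparison asked how free leucine in place of part of the casein affected these transcripts. Adipoq averaged 4.25 on the leucine arrays (SD 0.04) and 6.54 on the casein arrays (SD 1.25), n = 2 for each diet. The difference on the log2 scale was −2.29 with an SE of 0.97, which is 4.88-fold lower with leucine. Lep averaged 3.02 (SD 0.32) and 4.53 (SD 0.80), a difference of −1.51 with an SE of 0.64, with leucine signals not shown to be above background. Neither passed the test of limma, with an adjusted p of 0.564 for both, and 0 of the 9 genes and 0% of all genes passed at 0.05. The 95% interval of the Adipoq difference ran from −4.90 to 0.33 and that of Lep from −3.23 to 0.22. In measured signal both genes lay past 2-fold, which 0.979% of all genes did in this direction.

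Of the 9 genes 6 were lower with leucine (49.1% of all genes) and 3 higher (48.5%). In 5, namely Adipoq, Lep, Plin1, Cfd and Retn, both leucine arrays lay below both casein arrays, as they did in 15.6% of all genes. In 1, Pnpla2, they lay above, as in 15.9% of all genes. Plin1 had a log2 fold change of −0.53 ± 0.33 (SE), Cidec of −0.85 ± 0.74 and Cfd of −0.62 ± 0.37. Pnpla2 had 0.69 ± 0.53, Lipe 0.24 ± 0.23 and Fabp4 0.04 ± 0.22. Retn, at −0.75 ± 0.22, was the only gene of the set with an unadjusted p under 0.05 by limma (9.61% of all genes, 4.85% in this direction), and its adjusted p was 0.437. With 2 arrays against 2, an exact permutation test of a single gene cannot go below p = 0.333 (two-sided).

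Several of these differences rested on casein array 2. Without it the log2 fold change of Adipoq was −1.41, that of Lep −0.94, that of Plin1 −0.21 and that of Cidec −0.049, all against casein array 1 alone. Pnpla2 then stood at 1.19 and Lipe at 0, while Cfd at −0.72 and Retn at −0.57 moved less. The median over the 9 genes was −0.62, beside 0 over all genes, and −0.21 without casein array 2. Against casein array 1 alone 6 of the 9 genes were lower with leucine, 2 higher and 1 equal. The members were named with earlier results of these data known, so this median is a description.

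The second comparison asked about complete dairy protein in place of casein. Adipoq averaged 5.60 on the dairy arrays (SD 1.59, n = 2), a difference from casein of −0.94 with an SE of 0.97 on the log2 scale. Cidec differed by −0.08 ± 0.74 and Lep by −0.56 ± 0.64, in each case by less than the 2 arrays of either diet differed from each other. Of the 9 genes 5 were lower with dairy (46.3% of all genes) and 4 higher (50.6%), and 0 were past 2-fold lower (0.696%). By limma 0 of the 9 genes and 0% of all genes passed the adjusted threshold. Retn alone had an unadjusted p under 0.05, as 4.8% of all genes did, 2.31% lower and 2.49% higher. Retn had a log2 fold change of −0.61 ± 0.22 with arrays that did not overlap (11.7% of all genes), and Fabp4 of 0.49 ± 0.22 with arrays that did not overlap (11.5%). The adjusted p by limma was 0.833 for both.

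The sign of the Lep, Plin1 and Cidec differences depended on single arrays. Without casein array 2 they were 0.0076, 0.11 and 0.73, and without dairy array 2 they were 0.16, 0.13 and 0.64. Adipoq stood at −0.061 without casein array 2, 0.18 without dairy array 2 and −2.07 without dairy array 1. The median over the 9 genes was −0.08, beside 0.0028 over all genes, and 0.11 without casein array 2, when 7 of the 9 genes were higher with dairy and 2 lower.

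Leucine and dairy were compared directly, with 8 of the 9 genes lower with leucine, as were 48.5% of all genes, and Pnpla2 higher, as were 48.4%. Some other marker lists, described further on, were also mostly lower with leucine. These were macrophages (12 of 12), fibro-adipogenic progenitors (9 of 9), fast fibres (10 of 11) and endothelium (9 of 10). Hepatocyte genes (13 of 14) and slow-fibre genes (9 of 10) were mostly higher. Of 19 other genes of fat cells 12 were lower and 6 higher, with a median of −0.09. Of 20 lipid droplet and lipolysis genes 10 were lower and 9 higher, with a median of −0.02. Brown fat genes (4 lower, 3 higher), receptors and partners (3 lower, 4 higher) and blood genes (3 lower, 3 higher) were split. Adipoq differed by −1.34 with an SE of 0.97 on the log2 scale, which is 2.54-fold lower with leucine, and this was past 2-fold, a size that 0.565% of all genes exceeded in this direction. Lep had −0.95 ± 0.64, Cfd −0.77 ± 0.37 and Fabp4 −0.45 ± 0.22. In these 4 genes both leucine arrays lay below both dairy arrays, as in 14.9% of all genes, and the reverse held in 0 of the 9 and in 13.4% of all genes. For Lep the margin was slight, with 3.25 on dairy array 2 and 3.24 on leucine array 1, neither shown to be above background. By limma 0 of the 9 genes passed (0% of all genes) and 0 had an unadjusted p under 0.05 (5.7% of all genes), with adjusted p between 0.903 and 0.951. Without dairy array 1 the difference was −0.22 for Adipoq, −0.23 for Lep, −0.049 for Cidec and −0.15 for Fabp4, so dairy array 2 lay close to the leucine mean in these genes.

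**Figure D3:**
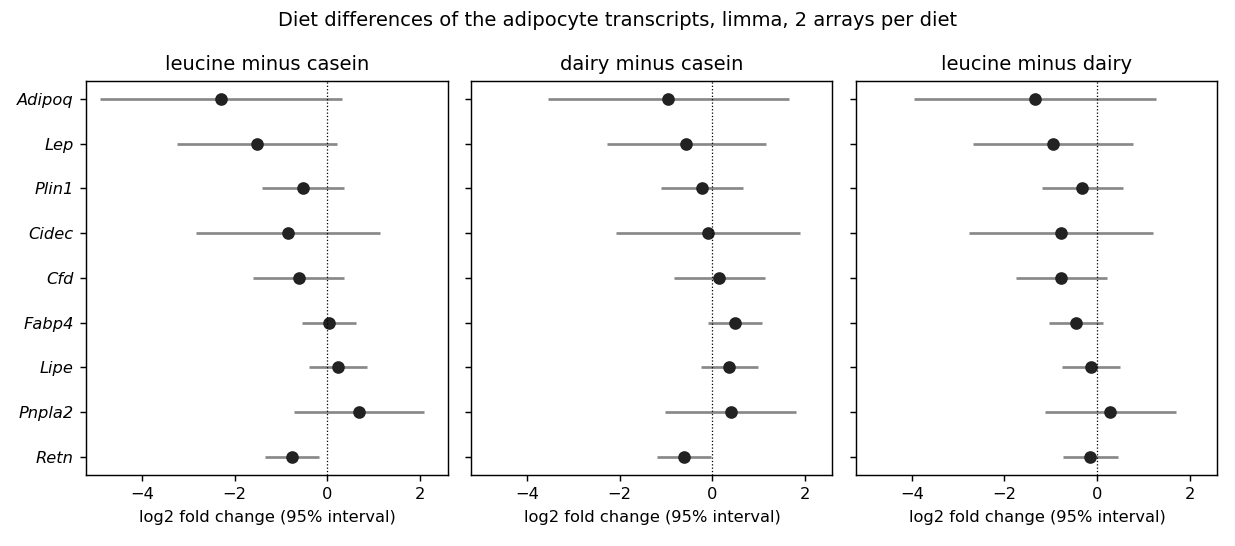
Log2 fold change of each gene (points) with its 95% interval from limma (lines) in the 3 comparisons of diets, 2 arrays per diet. The intervals of Adipoq are the widest, from −4.90 to 0.33 for leucine minus casein, and only those of Retn against casein lie wholly below 0.

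The leucine arrays were closer to each other than the arrays of either other diet in Adipoq, Lep, Plin1, Cidec, Lipe and Pnpla2. They were not in Cfd, Fabp4 and Retn. In Adipoq the leucine arrays were 0.06 apart on the log2 scale and in Lep 0.45, and in Lipe they held exactly the same value. The share of all genes with closer leucine arrays was not computed, so this is not read as a trait of the set. In 6 of the 9 genes the largest gap between arrays of 1 diet exceeded the largest gap between diet means, as in 76.8% of all genes. Adipoq, Lep and Retn were the exceptions. In Adipoq the gap between diet means of 2.29 was close to the gap of 2.25 between the dairy arrays.

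Other genes of fat cells were read from a list of 22, of which 19 were measured. Casein array 2 and dairy array 1 lay above the other arrays in 8 of these 19, among them Sncg, Thrsp, a regulator of lipid synthesis, and Npr3, a receptor that clears natriuretic peptides. Sncg, the gamma-synuclein gene, stood at 5.77 and 7.31 with casein, 6.48 and 6.39 with dairy, and 5.24 and 5.03 with leucine. Thrsp stood at 5.25 and 7.62 with casein, 6.53 and 5.01 with dairy, and 5.63 and 6.03 with leucine. Unlike in Adipoq, its leucine arrays lay above casein array 1 and dairy array 2. Its log2 fold change from casein to leucine was −0.61 ± 0.97 (SE), and 0.58 without casein array 2. Npr3 stood at 5.75 and 6.69 with casein, 6.20 and 5.43 with dairy, and 4.32 and 4.73 with leucine, a log2 fold change from casein to leucine of −1.69 ± 0.44 (SE) with an adjusted p of 0.414 by limma, and −1.22 without casein array 2. Pparg, which encodes the master regulator PPAR-gamma and was picked for its role, was also among the 8, at 4.15 and 4.37, then 4.94 and 4.03, then 4.15 and 3.85. The same order of arrays held in 4 of 12 macrophage genes (Cd163, C1qb, Mrc1 and Lyz2) and in 3 of 9 genes of fibro-adipogenic progenitors (Pdgfra, Pi16 and Dcn). It held in 2 of 20 lipid droplet and lipolysis genes and 1 of 10 endothelial genes. In the brown fat, receptor, fast-fibre, slow-fibre, hepatocyte and blood lists it held in 0 genes. Over all genes the share was 4.31%, and whether these shares differ was not tested.

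Other genes on that list went the opposite way. Cd36, a fatty acid transporter that muscle fibres also use, stood at 9.70 and 8.62 with casein, 9.29 and 10.1 with dairy, and 10.2 on both leucine arrays. Aqp7, a glycerol channel, stood at 5.79 and 4.96 with casein, 5.69 on both dairy arrays, and 6.94 and 6.25 with leucine. Agpat2, an enzyme of triglyceride synthesis, was 0.64 ± 0.25 higher with leucine than with casein on the log2 scale, with an adjusted p of 0.535 by limma, and 0.42 higher without casein array 2. Over the 19 genes 16 were lower and 3 higher with leucine than with casein, with a median of −0.31. Without casein array 2, 13 were lower, 5 higher and 1 equal, with a median of −0.13, and with all arrays 0 passed the adjusted threshold in any comparison.

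Ucp1, the uncoupling protein that defines brown fat cells, lay between 2.03 and 2.48, below the array medians. Of the 7 measured genes of the brown fat list 5 were lower and 2 higher with leucine than with casein, with a median of −0.05. Dio2, the deiodinase that activates thyroid hormone, had the largest range of that list, 1.24 on the log2 scale, and stood at 3.64 and 3.08 with casein, 3.00 on both dairy arrays, and 2.88 and 2.40 with leucine. Its log2 fold change from casein to leucine was −0.72 ± 0.25 (SE), with an adjusted p of 0.498 by limma, and −0.999 without casein array 2, at signals that lay below the median of the named genes on every array. Ppargc1a, a coactivator that drives mitochondrial genes in muscle too, had a range of 0.80, and Cpt1b, which brings fatty acids into muscle mitochondria, a range of 0.78. Among 20 measured genes of lipid droplets and lipolysis, 12 were higher, 7 lower and 1 equal with leucine than with casein, with a median of 0.04 (0.07 without casein array 2, when 11 were higher, 7 lower and 2 equal), and 0 passed the adjusted threshold by limma in any comparison. Lpl, the lipase that frees fatty acids from circulating triglyceride, had the smallest p of that list at a log2 fold change of 1.17 ± 0.24 (SE) and an adjusted p of 0.366. Abhd5, the activator of adipose triglyceride lipase, differed by −0.01 ± 0.28, and by −0.18 without casein array 2. Fitm1, which helps fat to enter droplets in muscle, lay between 9.96 and 10.2 on all arrays.

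Of 7 measured receptors and partners of fat cell hormones, 4 were higher and 3 lower with leucine than with casein, and 0 passed the adjusted threshold. Adipor2, an adiponectin receptor, was 0.34 ± 0.08 (SE) higher with leucine than with casein on the log2 scale and 0.36 ± 0.08 higher than with dairy. The adjusted p by limma was 0.406 and 0.619. Adipor1, the other receptor, differed by 0.25 ± 0.18 between leucine and casein, and by 0.45 without casein array 2. Cdh13, T-cadherin, which binds adiponectin, differed by 0.60 ± 0.23 between dairy and casein and by 0.36 ± 0.23 between leucine and casein. Without casein array 2 these were 0.27 and 0.03. The leptin receptor gene Lepr was not among the named rows.

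Markers of other cells were read on the same arrays. Macrophage genes, all 12 measured, had centred medians of −0.31 and 0.61 on the casein arrays, 0.24 and 0.19 on the dairy arrays, and −0.31 and −0.49 on the leucine arrays. Their summed linear level ran from 287 to 750.0 with casein, 460 to 488 with dairy and 273 to 299.8 with leucine, and all 12 were lower with leucine than with casein, with a median of −0.57. Without casein array 2 the median was −0.08, with 6 lower and 6 higher. Fibro-adipogenic progenitor genes, 9 of 10 measured, had centred medians of 0.09 and −0.02 with casein, 0.49 and 0.06 with dairy, and −0.31 and −0.42 with leucine. Their summed level ran from 1209 to 1217 with casein, 1224 to 1831 with dairy and 645 to 737 with leucine. Of the 9 progenitor genes 8 were lower and 1 higher with leucine than with casein, with a median of −0.42. Without casein array 2 all 9 were lower, with a median of −0.48. Dcn, the decorin gene of that list, was 1.08 ± 0.24 lower in log2 units with leucine than with casein (adjusted p of 0.380 by limma). Its log2 fold change without casein array 2 was −1.04.

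Hepatocyte genes had a different order. Their centred medians were 0.03 and 2.13 with casein, −0.42 and −1.12 with dairy, and −1.25 and 0.80 with leucine, so leucine array 2, the lowest for Adipoq and Lep, was the second highest for hepatocyte genes. Alb, the albumin gene, stood at 9.48 and 11.7 with casein and 4.81 and 9.80 with leucine. Their summed level ran from 1152 to 4937 with casein, 217 to 592 with dairy and 181 to 1610 with leucine. Slow-fibre genes, such as Myh7, the slow myosin heavy chain, were far lower on casein array 2 alone, where Myh7 stood at 6.07 against 10.7 to 11.4 elsewhere. On dairy array 1, the other array high for Adipoq, the slow-fibre median was 0.49 and the hepatocyte median −0.42. Endothelial genes had centred medians between −0.19 and 0.15. The part of these other cells in the differences of the fat cell genes was not tested.

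**Figure D4:**
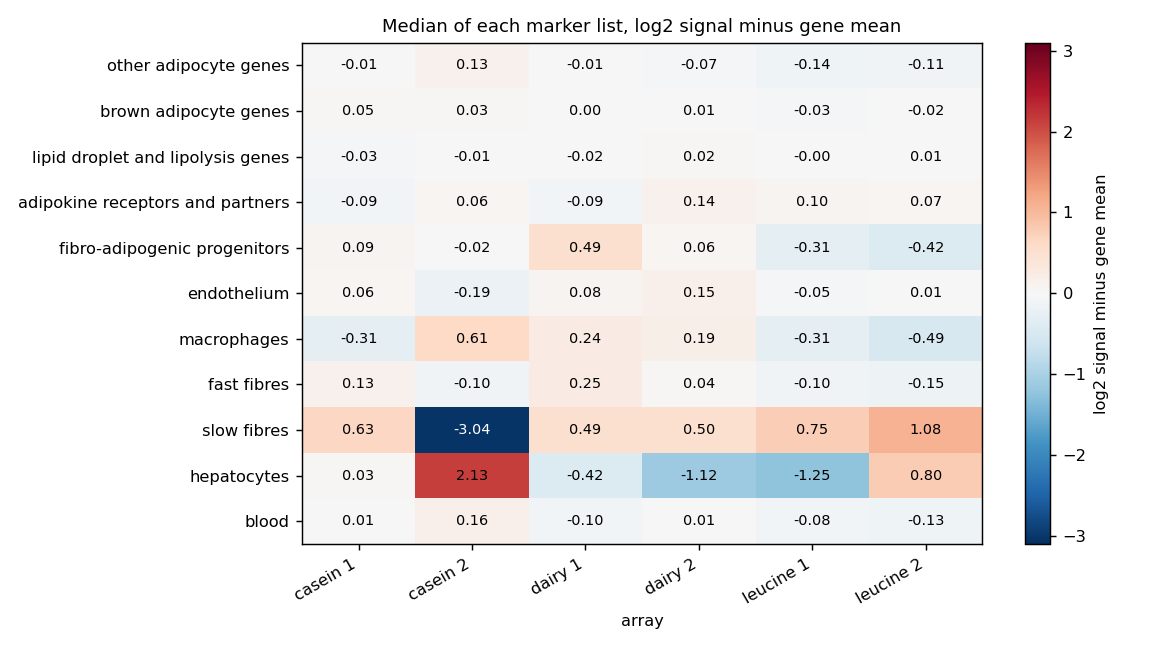
Median of each marker list (rows) on each array (columns), as log2 signal minus the mean of each gene over the 6 arrays. Casein array 2 stands apart in slow-fibre genes (−3.04) and hepatocyte genes (2.13), dairy array 1 is highest for fibro-adipogenic progenitor genes (0.49), and the leucine arrays are at −0.31 and −0.42 for the latter.

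The genes whose pattern lay closest to each member were found among all 14506 by the same root mean square difference. For Adipoq they were Pfkfb3 at 0.35, Fgl2 at 0.47, Pgc at 0.48, Cdo1 at 0.51 and Pi15 at 0.54. Pfkfb3, an enzyme that sets the rate of glycolysis, stood at 7.87 and 9.25 with casein, 8.90 and 6.65 with dairy, and 6.15 and 7.11 with leucine. For Lep the closest were Mstn, the myostatin gene, at 0.27, Mc5r, a melanocortin receptor, at 0.29, Egr1 at 0.31, Pi15 at 0.31 and Prkar2b at 0.32. For Cidec they were Egr1, an immediate early transcription factor, at 0.15, Prkar2b at 0.19, Tmem100 at 0.20, Parp9 at 0.21 and C6 at 0.21.

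Cfd lay closest to Pvalb, the calcium buffer parvalbumin of fast fibres, at 0.053, followed by Trarg1, a protein of insulin-responsive vesicles in fat cells, at 0.12, Chp2 at 0.13, Mx1 at 0.15 and Adamts5 at 0.15. Trarg1 lay between 3.76 and 5.15, highest on dairy array 1. Pnpla2 lay closest to Ciao2a at 0.086, Agpat1, an enzyme of phospholipid and triglyceride synthesis, at 0.12, Ufc1 at 0.12, Stard10 at 0.12 and Tmem9b at 0.16. Retn lay closest to Or2g1, Tp53i13, Panx3, Rdh16 and Fancd2osl1, at 0.072 to 0.12. The closest genes to Adipoq were thus farther from it, rank by rank, than those of the other 5 members were from theirs. The distance is not scaled to the range of a gene, and Adipoq had the largest range of the set. This ranking is therefore not read as a trait of its pattern. All distances are over the same 6 arrays, 2 per diet, and no more than a description.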

How the data were processed

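Total RNA was labelled with biotin and hybridised to 6 arrays. The deposited values are log2 signals per transcript cluster, and the submitters' processing notes name Expression Console (Affymetrix) as the tool of the authors. Its version, background correction, normalization and the build are not given in the sources used here. Values from 1.14 to 13.7 fit a log2 scale. Scanner files were not analysed here. Of 29214 rows, 15310 had 1 gene in the platform annotation and 323 several, which were left out. Symbols were updated through the gene identifier for 15279 rows, and the row with the highest mean was kept for the 527 genes with several rows. All 14506 genes entered limma 3.58.1 (R 4.3.3) with diet as the only term over 6 arrays and 3 residual degrees of freedom, without a filter, and p-values were adjusted by Benjamini-Hochberg with a threshold of 0.05. The number of arrays limits the precision. The procedure was tested on simulated data. Same-numbered arrays did not deviate together in all pairs (correlations of 0.0865, 0.179 and 0.0536 across genes), so the numbers were not taken as pairs. All members were named, and list genes were named by their mean level (up to 6 per list) with the exceptions below. The 5 closest genes were given for members with a range of at least 1 on the log2 scale. Pparg, Abhd5, Ucp1, Dio2, Ppargc1a, Cpt1b, Myh2, Lyz2 and genes with the smallest p were named for their role or after their values were seen. Members and lists were chosen with earlier results of these data known. Promoters are from RefSeq GRCr8; 8 of the 10 genes matched, and Fabp4 and Lipe did not.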

Additional observations from a re-analysis of the deposited data

How the results depend on the processing

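In 14 other settings per comparison, which changed the normalization, the filter on dim genes, the variance model, the rows, the arrays or the pairing term, 0 members passed the adjusted threshold by limma. The replicate block cannot move a difference in this balanced design (the medians are −0.62, −0.08 and −0.45 for leucine minus casein, dairy minus casein and leucine minus dairy by construction). It moved the adjusted p for leucine minus casein to 0.544 for Adipoq and 0.402 for Retn, and 0 genes passed. Of 372 single-gene values 16 changed sign. Quantile normalization put Fabp4 at −0.047 for leucine minus casein, and the other 15 came from an array left out. Centring each array on its median added 0.10 to every leucine minus casein value, and no member changed sign. With dim genes left out, 7 members remained and the dairy minus casein median was 0.16.

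Leaving out 1 array in turn, a lone array being assumed to vary like the others, gave ranges as follows. For leucine minus casein the member median ran from −0.84 to −0.21, Fabp4 from −0.031 to 0.12, and the genes past the threshold from 0 to 1. For dairy minus casein the median ran from −0.53 to 0.16, Adipoq from −2.07 to 0.18, Lep from −1.27 to 0.16, Plin1 from −0.56 to 0.13, Cidec from −0.89 to 0.73, Cfd from −0.34 to 0.65 and Pnpla2 from −0.17 to 0.98, with 0 to 1 genes past the threshold. For leucine minus dairy Plin1 ran from −0.66 to 0.028, Lipe from −0.36 to 0.095, Pnpla2 from −0.29 to 0.86 and Retn from −0.37 to 0.079. The single gene was called without casein array 1 in both comparisons and is no member. The cause of these changes was not tested. No reading of background was at hand, so for Lep, Cidec, Plin1, Cfd and Retn, which lay near or below the median of the named genes on several arrays, a low signal cannot be told from none.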
